A study of Mus musculus with 6 samples.

Results

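The genes described here are those that encode the proteins of the cytosolic ribosome. They were taken from a GRCm38 gene annotation as all protein-coding genes with an Rpl or Rps symbol followed by a digit, plus Rpsa, Rplp0, Rplp1 and Rplp2. Copies marked -ps, the Rps6k kinases and 5 further symbols were left out. This gave 82 genes of 55487 in the count tables, 44 of the large subunit, 29 of the small subunit, 8 paralogues of another member and Rps19bp1. The last matches by its symbol only, since it encodes a protein that binds a ribosomal protein. Of the 82 genes, 78 had a summed count of at least 60 over the 6 libraries and are called measured. The 4 that were not measured were Rpl10l, Rpl39l, Rpl36al and Rpl3l, with 0, 6, 43 and 58 counts in all.

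The cytosolic ribosome joins a small subunit, which reads the mRNA, and a large subunit, which forms the peptide bond and carries the exit channel for the new chain. Each ribosomal protein is needed in about equal number, and the mRNAs of most of them begin with a run of pyrimidines, the terminal oligopyrimidine or TOP tract, through which their translation follows mTOR signalling. In the young cerebellum, dividing granule cell precursors and growing neurons are known for high ribosome production. Ribosomal protein genes have left many processed copies in mammalian genomes, so short reads of their mRNAs often match more than 1 place.

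The starts of 5 genes on which the results turn are shown as 30 bases, 5′ to 3′ on the gene's own strand, from RefSeq (GRCm38.p6), with the longest pyrimidine run near the annotated start in capitals. They show starts with a long pyrimidine run beside starts with a short one. Rps18 was the gene that passed the test, Rpl6 and Rps6 had lower values in each knockout library, and Rps27 and Rps27rt are a parent gene and its single-exon copy.
Rps18 (chr17:33955651-33955680, minus strand): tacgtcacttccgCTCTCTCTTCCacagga
Rpl6 (chr5:121204486-121204515, plus strand): tggtcaCCTCCCgtcattgcttatagaccg
Rps6 (chr4:86857353-86857382, minus strand): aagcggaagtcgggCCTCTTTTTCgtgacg
Rps27 (chr3:90213634-90213663, minus strand): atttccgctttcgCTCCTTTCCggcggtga
Rps27rt (chr9:114982725-114982754, minus strand): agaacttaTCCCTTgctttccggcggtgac
Rps18, Rps6 and Rps27 have runs of 11, 10 and 9 pyrimidines that span the annotated start. Rpl6 has a run of 6, which ends before it. Rps27rt has a run of 6 that ends before the annotated start and another of the same length that begins at it. Only the first of these is in capitals. Over the 59 members with an entry, 20 (33.9%) had a run of at least 8 pyrimidines within the 10 bases before and 15 bases from the start, against 9.49% of 11434 tested protein-coding genes. The letters CTTTC, searched on the gene's strand in the same window, were in 13 members (22.0%) and in 2.63% of those genes. CTTTC can lie within such a run, so both counts overlap. The RefSeq start lay 12, 20, 45, 3 and 0 bases from the start of the principal GENCODE transcript in Rps18, Rpl6, Rps6, Rps27 and Rps27rt, so the window is only as exact as the annotation. A missing match says only that these letters are not in this window.

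RNA came from the whole cerebella of individual male mice at postnatal day 14. The 3 knockout (KO) mice were homozygous for Galnt17 tm1.1(KOMP)Vlcg, also labelled Wbscr17, and the 3 control (WT) mice were B6C3 wild types, that is of a C57BL/6J and C3H/He hybrid stock. On C57BL/6 the homozygotes did not survive to birth, per the labels, and the KO line was crossed to B6C3 to get live pups. Both groups thus carry C3H/He ancestry, in shares the labels do not give, and nothing in the labels says that they were littermates. Galnt17 encodes an enzyme of the family that starts mucin-type O-glycosylation. Libraries held 17111611 to 29840046 reads counted in genes. Reads of the targeted Galnt17 numbered 63 to 80 per KO library and 729 to 1119 per WT library, in the direction the labels give. Levels are given as CPM, counts scaled to library size with TMM factors, which adjust libraries for differences in composition. The 10 cerebellar markers examined, Gabra6, Pcp2 and Zic1 among them, summed to 7822 to 7899 CPM in KO and 6544 to 7268 CPM in WT. Of these, 2 were higher in KO at an edgeR adjusted p below 0.05, as were 0.784% of all tested genes. The 4 forebrain markers summed to 11.6 to 17.8 CPM. Choroid plexus markers also stood apart between the groups, with a sum over 14 genes of 214 to 775 CPM in KO and 1622 to 2924 CPM in WT. All 14 had lower estimates in KO, 11 of them at an edgeR adjusted p below 0.05, as had 0.872% of all tested genes. Multimapping reads, which the counts leave out, were 3.72% to 3.90% of reads in KO and 4.09% to 4.29% in WT. Unmapped reads were 13.8% to 17.2% in KO and 6.52% to 10.03% in WT, and mitochondrially encoded genes took 3.23% to 3.37% and 3.08% to 3.15% of gene counts. The part of any of these in the results on ribosomal protein genes was not tested. In whole tissue, fewer cells of a type and less RNA per cell cannot be told apart.

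Few ribosomal protein genes differed past the test between KO and WT cerebella. Of the 78 measured members, 1 rose in KO, Rps18, which encodes a protein of the small subunit head, by 1.22-fold. None fell, and 77 did not pass (edgeR's quasi-likelihood test, Benjamini-Hochberg adjusted p below 0.05 over 18237 tested genes). Of all tested genes, 0.784% were called higher, 0.872% lower and 1.66% in either direction. Before adjustment, 4 members stood higher and 15 lower in KO at p below 0.05, where 8.57% and 8.99% of all tested genes did. The estimates leaned to lower values, with 61 of the 78 below 0, a median log2 fold change of -0.09 and quartiles of -0.14 and -0.02. Over all tested genes the median was -0.01, and 48.5% of estimates were above 0. DESeq2 called 2 members higher and 1 lower, where it called 1.61% and 1.44% of all tested genes. Without WT replicate 1, edgeR called 11 members lower, and 5.24% of all genes tested in that fit. With offsets for GC content and exon length it called 8 lower, and 1.2502% of all tested genes.

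**Figure D1:**
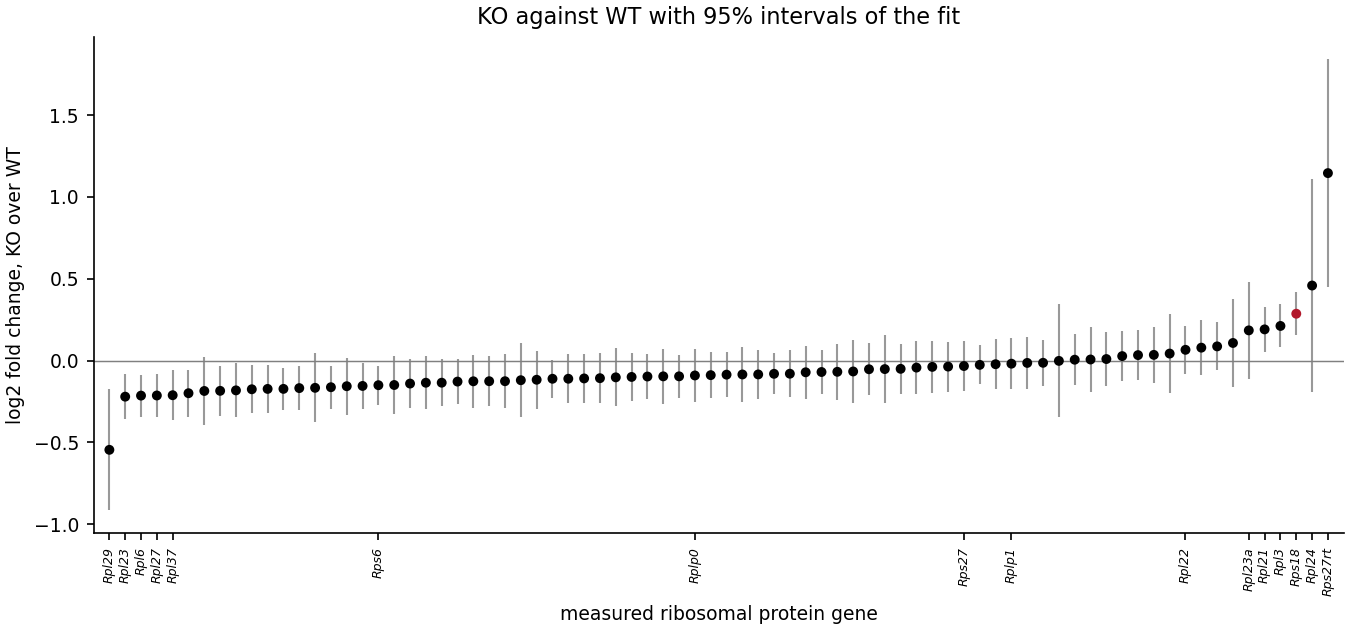
Log2 fold change of KO over WT (vertical axis) for the 78 measured ribosomal protein genes in order of the estimate, some of them named on the axis, with the 95% interval of the fit as a grey line. Rps18 in red is the call, and 61 points lie below 0.

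Most of the lean to lower values was lost without 1 wild-type mouse. WT replicate 2 held the highest level of 66 of the 78 measured members, while it was the highest library for 19.4% of all tested genes. Its members were a median 1.151-fold above the mean of the other 5 libraries on the log2 CPM scale. The share of all gene counts that fell in the 82 members was 1.32%, 1.29% and 1.26% in the KO mice (replicates 1 to 3). It was 1.30%, 1.47% and 1.28% in the WT mice. Outside WT replicate 2, the shares of both groups lay in the same range. The group means were 1.29% ± 0.0290 in KO and 1.35% ± 0.106 in WT (SD, n = 3 each), a ratio of 0.958, and the ratio was 1.003 without WT replicate 2. Without that library the median log2 fold change was -0.02, with 33 estimates above and 45 below 0.

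Spread among mice was wider in WT for nearly every member, and most of that spread also came with WT replicate 2. The median SD of log2 CPM over the members was 0.05 in KO and 0.13 in WT, and 76 of the 78 varied more in WT, as did 76.4% of 10687 genes above 10 CPM. Left with WT replicates 1 and 3, it was 0.05. For those genes the medians were 0.05 in KO, 0.10 in WT and 0.09 in WT without replicate 2. The groups were fully separated with KO below WT in 17 members and with KO above in 4. Such separation was found downwards in 12.2% and upwards in 11.5% of all tested genes. Without WT replicate 2 the groups were separated with KO below in 17 members (21.8%) and above in 14 (17.9%), against 16.9% and 16.0% of all tested genes. Without KO replicate 1 or WT replicate 3, KO lay below in 30 and 29 members, against 16.8% and 17.8% of all tested genes.

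**Figure D2:**
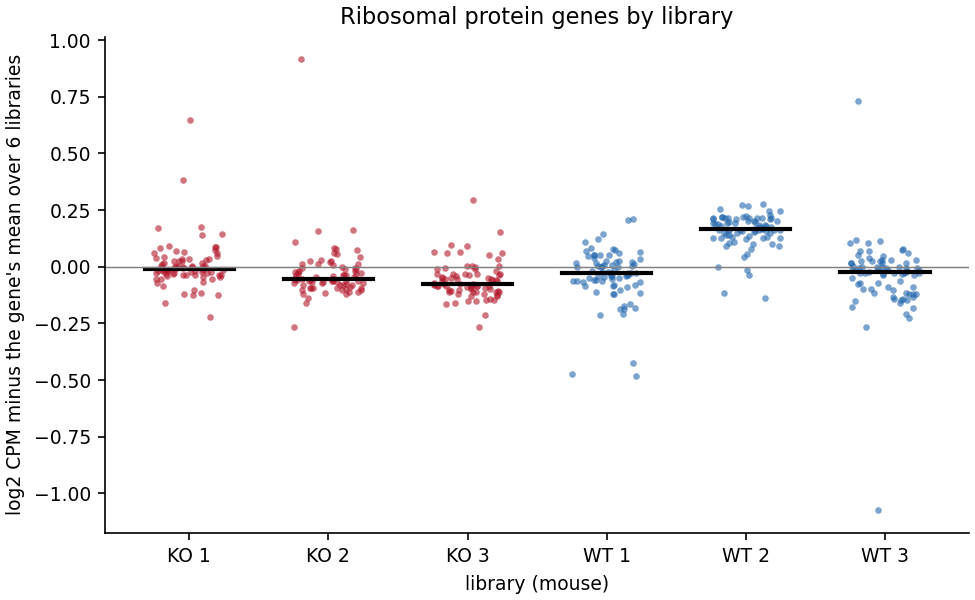
Log2 CPM of each measured ribosomal protein gene minus its mean over the 6 libraries (vertical axis), by mouse, 1 point per gene, with KO in red, WT in blue and the median as a black bar. The median of WT replicate 2 is 0.17, and those of the other libraries lie between -0.08 and -0.01.

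Rps18, the gene that rose, lies on chromosome 17 (33951999 to 33956001, minus strand, GRCm38). It stood at 193, 185 and 191 CPM in KO replicates 1 to 3 and at 148, 167 and 151 CPM in WT replicates 1 to 3. The groups did not overlap, and its highest WT value came from WT replicate 2, against the direction of the difference. Its log2 fold change was 0.29 (SE 0.06, adjusted p = 0.0424 by edgeR). DESeq2 and limma-voom also called it, with adjusted p = 0.00212 and 0.0395. It missed the threshold without KO replicate 1, 2 or 3 and without WT replicate 3 (edgeR adjusted p = 0.194, 0.17, 0.179 and 0.0648), at a log2 fold change between 0.27 and 0.30. Vps52 on the opposite strand overlaps its annotated 5′ end, but 0% of the principal transcript of Rps18 lies in exons of other genes. Vps52 was at 81.0 ± 3.63 CPM in KO against 93.2 ± 2.24 CPM in WT (n = 3 each, edgeR adjusted p = 0.0984). With both strand columns added, the counts of Rps18 over the 6 libraries were 23742, against 23437 without strand. Its log2 fold change was also 0.29 from that sum. That sum counts reads in the overlap for both genes and does not separate them. Of the windows of 150 bases in its mRNA, 26.3% also occur in transcripts of 4 other annotated genes, so part of its reads could not be placed uniquely.

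Rpl3, Rpl21 and Rps27rt had higher values in KO without passing. Rpl3, a large subunit protein beside the peptidyl transferase centre, was at 421, 403 and 408 CPM in KO and 341, 378 and 346 CPM in WT. All KO libraries lay above all WT libraries, at a log2 fold change of 0.21 (SE 0.06, adjusted p = 0.111 by edgeR, 0.0264 by DESeq2). Its processed copy on the X chromosome, Rpl3-ps1, went the other way, at 13.7 ± 0.554 against 24.5 ± 3.46 CPM (edgeR adjusted p = 0.00435), and 71.0% of the read-length windows of Rpl3 occur in other annotated genes. Rpl21, another large subunit gene, stood at 210, 197 and 202 CPM in KO and at 180, 190 and 165 CPM in WT, again with no overlap (log2 fold change 0.19, SE 0.06, edgeR adjusted p = 0.155). Rps27rt is a single-exon copy of Rps27 with few reads, 73, 69 and 32 in the KO mice against 27, 24 and 14 in the WT mice. Its level was 2.33 ± 0.695 against 1.07 ± 0.366 CPM (log2 fold change 1.146, SE 0.31, edgeR adjusted p = 0.106). Since 87.1% of its windows are shared with 2 other genes, its counts are uncertain. Rps27 itself was at 101 ± 0.559 against 104 ± 10.4 CPM. The same limit holds for Rps27, of whose windows 98.0% are shared with 2 other genes. Rpl24 and Rpl23a, the next by p among those above 0, are taken up with the overlapping genes below.

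Among members with lower values in KO, the largest estimate changed most with 1 mouse. Rpl29, a basic large subunit protein also known from the cell surface as a heparin-binding protein, was at 120, 117 and 117 CPM in KO. In WT replicates 1, 2 and 3 it was at 129, 155 and 233 CPM. The groups did not overlap, but WT replicate 3 stood far above the other WT libraries, and the log2 fold change of -0.55 (SE 0.17, edgeR adjusted p = 0.135) became -0.26 without it (adjusted p = 0.106). Without WT replicate 1 it was -0.72, with an edgeR adjusted p of 0.00843. Rpl29 had the widest spread of log2 CPM in WT among members above 10 CPM (SD 0.43), against 0.02 in KO.

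Rpl6, Rpl23, Rpl27 and Rpl37, also among the smallest p in that direction, had estimates of about the same small size. Rpl6, a large subunit protein, was at 223, 213 and 209 CPM in KO and 240, 264 and 244 CPM in WT, without overlap (log2 fold change -0.21, SE 0.06, adjusted p = 0.103 by edgeR, 0.0383 by DESeq2). Rpl23, which sits on the subunit interface and binds MDM2, was at 157, 151 and 146 CPM in KO and 170, 190 and 169 CPM in WT, also without overlap. Rpl27 stood at 120, 123 and 122 CPM against 134, 152 and 138 CPM. Rpl37 was at 86.6 ± 3.27 against 100.4 ± 8.89 CPM. In each of these the groups did not overlap and WT replicate 2 was the highest library, and edgeR's adjusted p lay between 0.103 for Rpl6 and 0.151 for Rpl37. Rpl23, Rpl27, Rpl37 and Rpl6 were all called without WT replicate 1 (adjusted p = 0.0285, 0.0176, 0.025 and 0.0193). Rps6, whose protein is the phosphorylated target of the S6 kinases, was among the steadiest members in WT, at 177, 168 and 166 CPM in KO and 185, 198 and 185 CPM in WT (log2 fold change -0.15, SE 0.05, edgeR adjusted p = 0.193). Rps29, also steady in WT, was at 135.9 ± 3.83 CPM in KO and 138 ± 5.84 CPM in WT, with overlapping groups (edgeR adjusted p = 0.836).

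**Figure D3:**
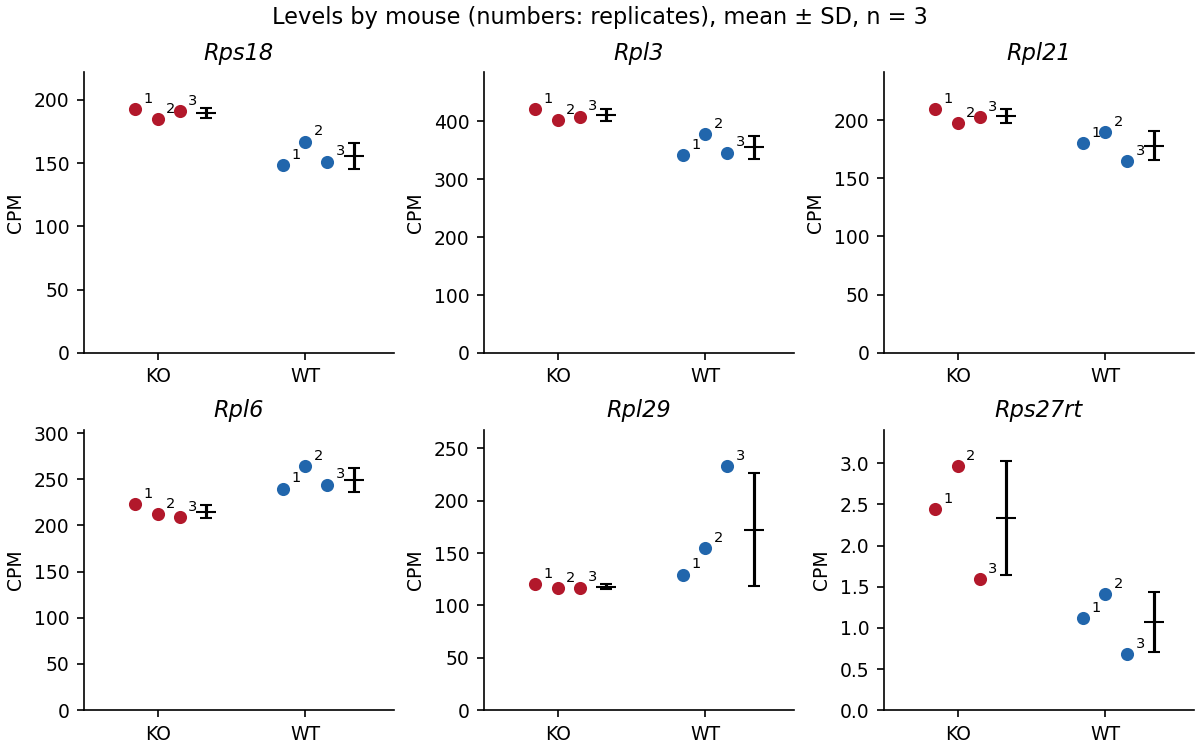
Level in CPM (vertical axis from 0) of 6 ribosomal protein genes in each KO (red) and WT (blue) mouse, with the replicate number beside each point and the mean ± SD (n = 3) at the right of each group. Rps18, Rpl3 and Rpl21 lie higher in KO, Rpl6 lower, and the gap of Rpl29 comes largely from WT replicate 3 at 233 CPM.

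The 2 subunits did not stand apart. Of the 44 large subunit genes 12 had estimates above and 32 below 0, with a median log2 fold change of -0.09 and a range from -0.55 to 0.46. Of the 29 small subunit genes 3 were above and 26 below 0, with a median of -0.07 and a range from -0.20 to 0.29. Rps18 was the highest small subunit estimate. Groups lay apart with KO lower in 11 large and 5 small subunit genes, where 12.2% of all tested genes did. They lay apart with KO higher in 2 large and 1 small subunit genes, where 11.5% of all tested genes did.

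Levels between members were compared per length, as CPM per kb of annotated exon. Rplp1, an acidic stalk protein that recruits elongation factors, was highest at 546 ± 9.95 in KO and 554 ± 53.6 in WT. Next came Rps15 at 302 ± 8.18 and 333 ± 30.6, then Rpl36 at 252 ± 3.32 and 264.5 ± 36.3. Rplp0, which anchors the stalk, was at 230.4 ± 11.7 and 245.5 ± 22.2, Rpl4, which lines the exit channel, at 221 ± 8.62 and 238 ± 18.6, and Rpl8 at 200.4 ± 9.32 and 213 ± 16.1. In WT, Rpl36, Rplp0, Rpl4 and Rpl8 each differed from the next in order by less than the sum of both SDs. Rps15 exceeded Rpl36 by slightly more than that sum, and Rplp1 stood far clear of Rps15. None of the 6 passed between the groups, but with offsets for GC content and exon length Rplp1, Rps15 and Rpl36 were called lower in KO (log2 fold change -0.27, -0.35 and -0.35, edgeR adjusted p = 0.0445, 0.0193 and 0.00536). Without the offsets, the intervals for the log2 fold change reached from -0.17 to 0.14 for Rplp1, from -0.29 to 0.01 for Rps15 and from -0.25 to 0.07 for Rplp0.

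At the other end, Rpl24, Rps10 and Rpl13a were counted at very low values, and most of each principal transcript lies inside exons of other annotated genes. Rpl24 had 16 to 38 counts per library, or 0.808 ± 0.196 CPM per kb in WT, the lowest of the measured members and 686 times below Rplp1. Its log2 fold change was 0.46 (SE 0.29, edgeR adjusted p = 0.44), with overlapping groups. Of its principal transcript, 71.5% lies in exons of Gm28037 on the same strand. Rps10 was at 5.53 ± 0.569 CPM in KO and 5.51 ± 0.760 CPM in WT, with 63.6% of its transcript in exons of RPS10-NUDT3 and Gm15420. Rpl13a was at 9.49 ± 0.603 and 8.82 ± 0.987 CPM, with 59.3% in exons of Gm45713 and Mir5121. Gm28037, RPS10-NUDT3 and Gm45713 themselves had 0 counts in all 6 libraries. Reads within exons of more than 1 gene are counted for none of them, so these values are not levels of the mRNA.

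For members that overlap genes on the opposite strand, the summed strand columns hold more reads. The first strand column held 49.94% to 49.99% of strand counts in each library, so the strand of a read does not tell its gene. The sum of both columns therefore counts a read in such an overlap for both genes, and takes in reads of the overlapping gene. Rpl23a, of which 55.4% overlaps Tlcd1, had 4256 counts over the 6 libraries without strand and 28397 when both strand columns were added, a ratio of 6.67. Without strand it stood at 35.3, 32.6 and 32.6 CPM in KO and at 22.4, 34.7 and 31.9 CPM in WT, so that WT replicate 1 alone was low. The ratio was 4.05 for Rpl35, which overlaps Arpc5l and Wdr38, 2.14 for Rpl22l1 and 2.04 for Rpl30, against a median of 1 over measured members. For 3 of these the estimate had another sign with both strand columns added. Rpl23a had a log2 fold change of 0.18 without strand and -0.10 from the strand columns, Rpl35 0.04 and -0.12, and Rpl22l1 0.08 and -0.15, and none passed in either count. With strand columns, 64 of the 78 members had estimates below 0. In all, the principal transcripts of 19 of the 82 members overlap exons of other genes, 7 of them over more than 50% of their length. Across the 78 measured members the Spearman correlation of that percentage with the WT level per kb of principal transcript was -0.50, as a description of genes that share libraries and a counting rule.

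**Figure D4:**
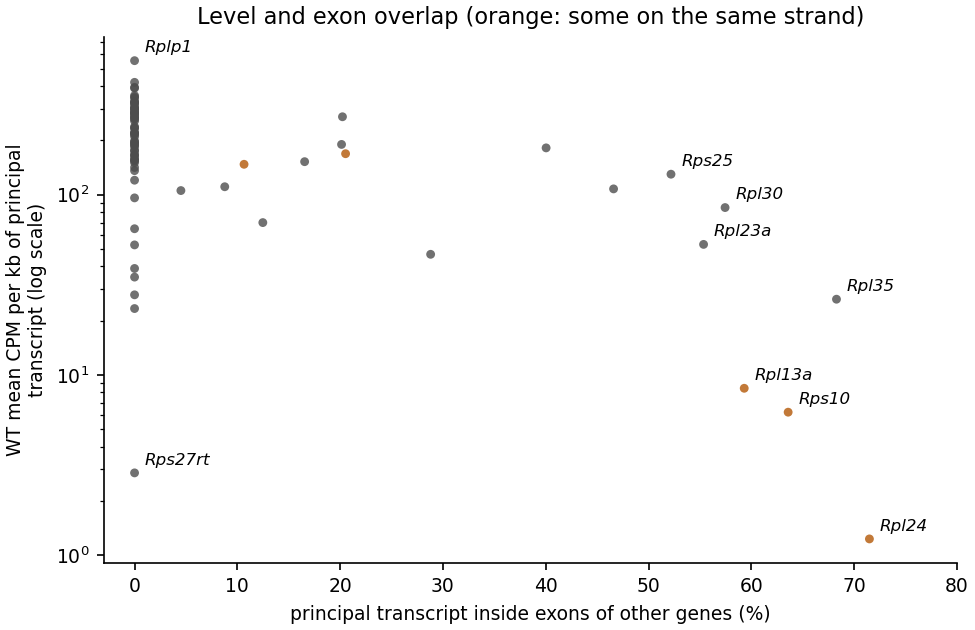
WT mean CPM per kb of principal transcript (vertical axis, log scale) against the percentage of that transcript inside exons of other annotated genes, 1 point per measured member, orange where some overlap is on the same strand. Rpl24, Rps10 and Rpl13a sit lowest on the right, and Rps27rt is low without overlap.

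Shared sequence was common as well, but the count includes genes that overlap a member at its own position. It is therefore not a separate count of copies elsewhere. Rpl24, for example, has 72.5% of windows shared and 71.5% of its principal transcript in exons of Gm28037. In 67 of the 82 members at least 1 window of 150 bases also occurs in the transcript of another annotated gene, with a median of 22.3% of windows per member, and in 21 members more than 50% do. Rpl21 shares windows with 20 other genes, Rpl7a with 15 and Rpl29 with 11. Across measured members, the Spearman correlation of this percentage with the level per kb of principal transcript was -0.03. The members are spread over 19 chromosomes, with 14 on chromosome 7, 7 on chromosome 17 and 4 on X (Rpl10, Rpl36a, Rpl39 and Rps4x). Within 28 of them the annotation places 55 small nucleolar RNA genes on the same strand. Their principal transcripts have a median length of 869 bases and a median of 5 exons.

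Measured paralogues were counted below their parents per kb of annotated exon. Rpl22 and Rpl22l1, RNA-binding proteins of the large subunit that can replace each other, were at 45.6 ± 3.88 and 12.95 ± 0.933 CPM per kb in WT, and at 47.7 ± 1.62 and 13.7 ± 0.348 in KO. Of the principal transcript of Rpl22l1, 28.8% overlaps Gm33051 on the opposite strand, so part of its reads was not counted. Per kb of principal transcript, Rpl22 was at 64.7 and Rpl22l1 at 46.7 CPM in WT. The order of these levels is therefore uncertain. Rps27l, a p53-induced relative of Rps27, was at 32.2 ± 4.02 CPM per kb in WT and 28.7 ± 0.627 in KO. Rps27 was at 99.3 ± 9.95 and 96.9 ± 0.536, a level that is uncertain because 98.0% of its windows are shared with other genes. Rpl7l1, a relative of Rpl7 that works in ribosome assembly, was the steadiest member in WT (SD of log2 CPM 0.05), at 20.7 ± 0.752 CPM per kb in WT and 19.2 ± 0.488 in KO, beside 131 ± 11.5 and 120 ± 2.97 for Rpl7. None of these passed (edgeR adjusted p from 0.309 for Rpl7l1 to 0.838 for Rps27).

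The muscle paralogue Rpl3l had 5 to 16 counts per library. Rpl36al, whose exon overlaps Gm49383 over 26.0% of its length, had 3 to 15 counts, and Rpl39l, known from the testis, 0 to 2. Rpl10l, also known from the testis, had 0 counts in every library, which allows up to 0.101 to 0.176 CPM per library at 3 counts. Of the X-linked members, Rpl10 was at 199 ± 3.53 CPM in KO and 219 ± 18.1 CPM in WT, Rpl39 at 108 ± 2.32 and 117 ± 13.9 CPM, Rpl36a at 65.7 ± 3.98 and 65.6 ± 9.04 CPM, and Rps4x at 255 ± 14.6 and 280.4 ± 25.3 CPM. Rps19bp1 was at 17.96 ± 1.17 and 19.6 ± 2.37 CPM (edgeR adjusted p = 0.574).

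No gene of the other lists for the translation machinery passed. For the counts before adjustment below, 8.99% of all tested genes were lower and 8.57% higher at an edgeR p below 0.05. Of 32 translation factors and other genes with TOP mRNAs, 0 passed, with 3 lower and 0 higher before adjustment, and the median log2 fold change was -0.08. Among them Eef1a1, which delivers aminoacyl-tRNA, was at 1974 ± 124 against 2129 ± 170.3 CPM, and the poly(A)-binding protein gene Pabpc1 at 164 ± 9.89 against 191 ± 10.9 CPM. Of 70 ribosome assembly factors 0 passed, with 11 lower and 0 higher before adjustment, and the median was -0.08. Of 77 mitochondrial ribosomal protein genes 0 passed, with 10 lower and 1 higher before adjustment and a median of -0.06. RNA polymerase I genes (15) and regulators of ribosomal protein synthesis such as Mtor and Larp1 (28) held 0 calls and had medians of 0.01 and 0.01, and 13 chaperones and importers had 0 calls and a median of -0.04.

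WT replicate 2 stood out in some of the other lists and not in others, beside 19.4% of all tested genes for which it was the highest library. It was the highest library for 21 of 32 translation factors and TOP genes, a median 1.10-fold above the other 5 libraries, and for 34 of 77 mitochondrial ribosomal protein genes, at 1.07-fold. It was the highest for 17 of 70 assembly factors, 3 of 15 RNA polymerase I genes and 5 of 28 regulators, at 1.01, 0.976 and 0.984-fold. For 5 of 13 chaperones and importers it was the highest, at 1.04-fold. Among 14 markers of dividing granule precursors, Mki67, Top2a and Atoh1 among them, it was the highest for 10, at a median of 1.246-fold. Their summed level was 540.3 CPM in WT replicate 2 against 386 to 463 CPM in the other 5. Of the 14 choroid plexus markers, 3 were highest in WT replicate 2 and 11 in WT replicate 3. The part of either marker list in the level of the ribosomal protein genes was not tested.

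**Figure D5:**
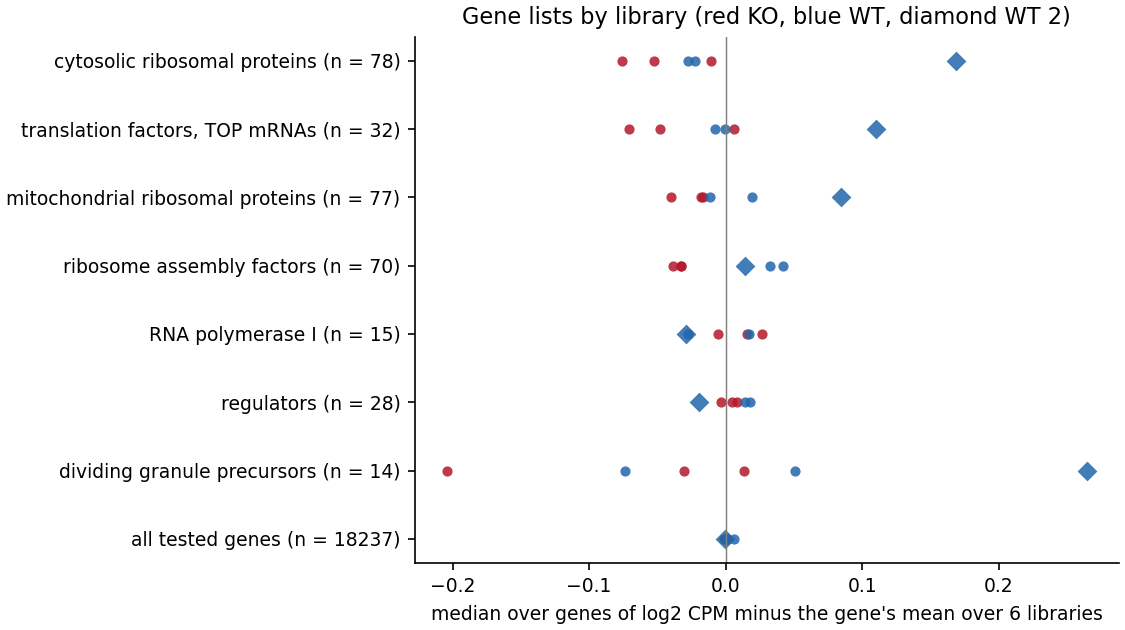
Median over the genes of each list of log2 CPM minus the gene's mean over the 6 libraries (horizontal axis), with KO in red, WT in blue and WT replicate 2 as a diamond. WT replicate 2 lies to the right for cytosolic ribosomal proteins (0.17), translation factors and TOP mRNAs (0.11), mitochondrial ribosomal proteins (0.08) and dividing granule precursors (0.26).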

How the data were processed

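Each library has 1 deposited table of raw gene-level counts from paired reads, made with STAR 2.7.5a on mm10/GRCm38, per the submitters' processing notes, which also name edgeR 3.12. The column counted without strand was used, and the sum of both strand columns was an alternative. STAR's 4 summary lines were left out. How reads were trimmed or filtered is not stated in the labels. PCR duplicates cannot be separated, as the labels mention no molecular barcodes. Symbols, positions, exon lengths and principal transcripts came from GENCODE M21, which matched 99.5% of identifiers.

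Genes were tested with edgeR 4.0.16 (TMM, filterByExpr with minimum count 10 and total 15, quasi-likelihood F test, two-sided), with DESeq2 1.42.0 and limma-voom 3.58.1 in R 4.3.3 as alternatives. SEs came from the fold change and F statistic. Log2 CPM used a prior count of 2. GC content was that of the longest transcript, in place of all exons as first planned. Values are mean ± SD. Groups follow the strain label; replicate numbers follow accession order. Libraries are single animals, and 3 per group and the depth of 17111611 to 29840046 counts limit the precision. Members, lists and tests were chosen with earlier results of these data known. Named genes were the calls, the 6 smallest p in each direction, the 6 highest and lowest levels per kb, paralogues with parents, the steadiest and most variable in WT, and calls in the related lists, of which there were 0. The levels per principal transcript and the separation of groups with a library left out were added after the data were seen. The fit was tested on simulated data. Rpl30, Rpl7a, Eef1a1, Pabpc1 and the genes that overlap or copy a member were named after their values were seen. Some genes that the naming rule covers are not reported here. With offsets from a loess curve (span 0.5), GC and length were adjusted per library.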

Additional observations from a re-analysis of the deposited data

How the results depend on the processing

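Removing the filter on low counts gave 3 members higher and 5 lower, with 803 (2.40%) higher and 820 (2.45%) lower among all genes. DESeq2 gave 2 and 1, with 294 (1.61%) and 263 (1.44%) among all genes. GC and length offsets gave 8 lower members and 228 lower genes in all (1.2502%). Leaving out WT replicate 1 gave 11 lower members and 962 lower genes in all (5.24%). The cause was not tested. Leaving out 1 library at a time gave 0 to 1 members higher and 0 to 11 lower, 28 to 959 genes higher and 53 to 962 lower in all, a median log2 fold change of the members of -0.12 to -0.02, a ratio of count shares of 0.933 to 1.003, 4 to 14 members with all KO above all WT and 17 to 30 below. By length of the principal transcript, the highest level was 451 times the lowest, against 686. Of all calls, 47.4% were higher, against 55.1% with upper-quartile scaling, 40.7% with the GC offset, 39.7% with GC and length offsets and 33.1% to 34.6% with a KO library left out.

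Some estimates near 0 changed sign, and the cause was not tested. Of these genes, Rpl36 and Rplp1 were called lower with GC and length offsets. From the strand columns Rpl22l1 was at -0.15, Rpl23a at -0.10 and Rpl35 at -0.12. With GC and length offsets Rpl35 was at -0.043 and Rpl36a at -0.013. Upper-quartile scaling gave 0.00058 for Rplp1 and 0.018 for Rps10, and for Rps10 total counts gave 0.014 and the filter on a summed count 0.00078. With single libraries left out, the lowest and highest log2 fold changes were -0.032 and 0.18 for Rpl35, -0.17 and 0.032 for Rpl36, -0.082 and 0.12 for Rpl36a, -0.079 and 0.063 for Rplp1, -0.084 and 0.12 for Rps10, -0.076 and 0.054 for Rps27, and -0.054 and 0.010 for Rps29. No paired analysis was possible because the labels give the groups no shared replicate number. Depth and 3 mice per group limit what small differences can be called. The principal transcript length and the separation with a library left out were chosen after seeing the data.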
